A study of Homo sapiens with 15 samples.

Results

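The 9 genes described here move lactate across the plasma membrane or decide where pyruvate goes. They are the lactate carrier genes SLC16A1, SLC16A3 and SLC16A7, the carrier partner genes BSG and EMB, the lactate dehydrogenase genes LDHA and LDHB, and the mitochondrial pyruvate carrier genes MPC1 and MPC2. They were found by gene symbol, 9 of 60651 genes in the count table and 9 of 23792 in the other table. The set was chosen by the measured levels of SLC16A1 and SLC16A3, which stood in opposite places in the libraries labelled KIF20A_OE and EV. Values of the 9 genes in that contrast are therefore a description, with no test.

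RNA sequencing covered 15 libraries, all labelled MDA-MB231, a line of human triple-negative breast cancer cells, grown in DMEM with serum. The depletion dataset held 3 libraries each of SG1 and SG3, both labelled as a KIF20A knockdown, and 3 of CTRL, labelled wild type. The overexpression dataset held 3 libraries labelled KIF20A_OE, a KIF20A overexpression, and 3 of EV, labelled wild type. KIF20A encodes a kinesin that acts in cell division. What SG1 and SG3 stand for, the vector behind EV and KIF20A_OE, the time after treatment, and whether a group is 1 clone or several cultures are not stated by the labels. The p-values therefore cover the spread among these libraries alone, and that spread may be technical.

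Lactate leaves or enters cells with a proton through carriers of the SLC16 family. The product of SLC16A1 (MCT1) works in both directions with moderate affinity, that of SLC16A3 (MCT4) is the export carrier of strongly glycolytic cells and a target of hypoxia-inducible factors (HIF), and that of SLC16A7 (MCT2) has the higher affinity and is linked to uptake. MCT1 and MCT4 need the glycoprotein encoded by BSG (basigin) to reach the membrane, and MCT2 prefers the one encoded by EMB (embigin). LDHA and LDHB encode the subunits of the lactate dehydrogenase tetramer, of which LDHA-rich forms favour lactate production and LDHB-rich forms lactate use, and the MPC1 and MPC2 proteins pair to carry pyruvate into mitochondria. MDA-MB231 cells are known for MCT4 with little or no MCT1.

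Start-site windows of 5 of the genes are shown: SLC16A3 and LDHA, which lay below EV in the libraries labelled KIF20A_OE, LDHB and MPC1, which lay above, and BSG, whose groups overlapped. For 3 of these, SLC16A3, LDHA and BSG, the table had more than 1 window, and the window printed was chosen because it was the gene's only one with the letters searched for. Each runs from 250 bases before to 50 bases after a RefSeq transcript start (GRCh38.p14), on the gene's strand. Capitals mark ACGTG on either strand, a form of the core letters of the element that HIF proteins bind. The other form, GCGTG, was not searched for and is not marked where it occurs. Where matches on both strands overlap, the capitals read CACGTG, which is also the E-box that MYC and USF proteins bind.

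SLC16A3, chr17:82228792-82229091, plus strand: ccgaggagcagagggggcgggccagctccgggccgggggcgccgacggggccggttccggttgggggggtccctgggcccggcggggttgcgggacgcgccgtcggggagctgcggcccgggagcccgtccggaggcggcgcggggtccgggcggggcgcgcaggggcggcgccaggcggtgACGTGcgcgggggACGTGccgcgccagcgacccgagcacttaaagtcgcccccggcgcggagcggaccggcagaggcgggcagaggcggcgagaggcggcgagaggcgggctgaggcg
LDHA, chr11:18394313-18394612, plus strand: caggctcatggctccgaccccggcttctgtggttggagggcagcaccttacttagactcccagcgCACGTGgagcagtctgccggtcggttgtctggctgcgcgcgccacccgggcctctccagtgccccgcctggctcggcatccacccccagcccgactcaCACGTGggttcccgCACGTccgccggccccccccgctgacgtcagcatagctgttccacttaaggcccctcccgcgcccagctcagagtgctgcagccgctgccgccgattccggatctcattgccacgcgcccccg
LDHB, chr12:21657793-21658092, minus strand: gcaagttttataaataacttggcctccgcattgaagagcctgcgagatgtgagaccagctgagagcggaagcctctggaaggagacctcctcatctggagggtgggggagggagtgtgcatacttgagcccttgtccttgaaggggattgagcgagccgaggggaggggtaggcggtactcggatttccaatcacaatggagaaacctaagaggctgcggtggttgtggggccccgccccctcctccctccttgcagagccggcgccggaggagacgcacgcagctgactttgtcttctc
MPC1, chr6:166382891-166383190, minus strand: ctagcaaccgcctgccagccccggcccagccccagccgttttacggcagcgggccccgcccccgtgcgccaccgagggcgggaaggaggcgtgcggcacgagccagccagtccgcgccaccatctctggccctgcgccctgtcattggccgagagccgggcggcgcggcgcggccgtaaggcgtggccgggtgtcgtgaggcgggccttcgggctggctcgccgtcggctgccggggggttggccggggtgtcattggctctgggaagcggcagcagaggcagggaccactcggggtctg
BSG, chr19:572346-572645, plus strand: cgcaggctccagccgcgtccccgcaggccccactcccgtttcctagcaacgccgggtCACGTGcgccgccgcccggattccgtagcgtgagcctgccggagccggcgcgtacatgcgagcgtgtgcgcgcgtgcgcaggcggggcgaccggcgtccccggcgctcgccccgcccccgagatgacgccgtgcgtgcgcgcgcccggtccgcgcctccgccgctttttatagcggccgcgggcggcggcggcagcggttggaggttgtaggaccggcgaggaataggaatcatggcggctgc

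The LDHA window held 5 matches, first bases at -185, -184, -87, -86 and -73 from the start, of which 4 made 2 copies of CACGTG. The SLC16A3 window held 2, at -68 and -55. The LDHB and MPC1 windows held 0 matches to ACGTG, and GCGTG was not counted in any window. Of the 9 genes, all but SLC16A1 and EMB had windows in the RefSeq table, 16 in all, and 3 windows held ACGTG: those shown of SLC16A3, LDHA and BSG, the last with matches at -193 and -192. The other 4 windows of SLC16A3, the other LDHA and BSG windows, and all windows of SLC16A7, LDHB, MPC1 and MPC2 held 0. Among all 35116 windows of this length in the table, 21.4% held ACGTG and 7.26% held CACGTG. A match is a run of letters, and binding was not measured.

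Library totals were 40.9 to 51 M counts (M for 1000000) over the depletion libraries and 16 to 22.2 M fragments over the overexpression libraries. Levels are CPM (counts per 1000000, on TMM library sizes) in SG1, SG3 and CTRL, and FPM (fragments per 1000000 assigned fragments) in KIF20A_OE and EV. The 2 tables were scaled separately, so levels are set side by side across them without a test. The floor for an undetected gene, taken as 3 counts, was 0.0588 to 0.0734 CPM or 0.135 to 0.188 FPM by library. The first principal component of the depletion libraries (23.4% of variance) split groups, with SG3 replicate 1 at 32.1 against -33.36 and -29.99, and CTRL replicate 3 at 24.71 against -27.42 and -21.3.

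KIF20A itself was 123, 147 and 91.5 CPM in SG1 and 86.3, 60.8 and 79.1 CPM in SG3, against 154, 171 and 160.2 CPM in CTRL. All SG1 and SG3 libraries lay below all CTRL libraries, but neither log2 difference passed the threshold across all genes, at -0.42 ± 0.17 (SE) in SG1 and -1.10 ± 0.18 in SG3 (edgeR adjusted p = 0.914 and 0.276). The libraries labelled KIF20A_OE held 1348, 269 and 896 FPM of KIF20A, against 101, 143 and 124 FPM in EV, and this rise passed the threshold (limma log2 difference 2.49 ± 0.53, adjusted p = 0.00415).

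The libraries labelled KIF20A_OE went against the MDA-MB231 label. Of 5 genes known to be expressed in this line (VIM, CD44, CAV1, AXL and EGFR), the summed level was 396 to 831 FPM in the libraries labelled KIF20A_OE, against 4964 to 5740 FPM in EV, and 4890 to 5771 CPM over the depletion libraries. VIM was still 776, 347 and 544 FPM in the libraries labelled KIF20A_OE, against 2735, 2705 and 2520 FPM in EV and 536 to 816 CPM over the depletion libraries. CD44, a hyaluronan receptor, was 0.125, 0.316 and 1.23 FPM in the libraries labelled KIF20A_OE, against 788, 615 and 523 FPM in EV. Of 5 genes the line is known to lack, CDKN2A and MTAP are neighbours that are deleted in it. CDKN2A was 276, 336 and 353 FPM and MTAP 22.7, 24.6 and 22.6 FPM in the libraries labelled KIF20A_OE, and both were at 0 in all EV, SG1, SG3 and CTRL libraries. With the other 3 genes of that list (ESR1, PGR and CDH1), its summed level was 301 to 389 FPM, against 0 to 0.823 FPM in EV. Most of that sum came from CDKN2A. CDH1 also lay above EV without overlap, but ESR1 and PGR overlapped EV. ESR1 was 0.501, 0.0902 and 0 FPM in the libraries labelled KIF20A_OE, against 0, 0 and 0.118 FPM in EV. PGR was 0.25, 0 and 8.89 FPM in the libraries labelled KIF20A_OE, against 0 in all EV libraries.

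Of 5 lists of markers of other cell types, the summed level of 1, the luminal list, did not overlap between these groups. Summed levels of its 9 markers were 535 to 610.0 FPM in the libraries labelled KIF20A_OE, against 1786 to 2090 FPM in EV. Of the 9, 4 lay below EV without overlap (EPCAM, KRT8, KRT18 and KRT19), others lay above (FOXA1 and XBP1 among them) and 2 overlapped. KRT19 was at 0, 0.0902 and 0 FPM in the libraries labelled KIF20A_OE and at 858, 744 and 880.2 FPM in EV, while FOXA1 was at 16.2, 17.1 and 19.1 FPM in the libraries labelled KIF20A_OE and at 0.0952, 0.145 and 0.353 FPM in EV. The 5 basal markers summed to 13.0 to 45.1 FPM in the libraries labelled KIF20A_OE, against 3.19 to 20.4 FPM in EV, and the 7 fibroblast markers to 80.5 to 103 FPM in the libraries labelled KIF20A_OE, against 27.5 to 99.4 FPM in EV. The 5 leukocyte markers summed to 3.43 to 3.69 FPM in the libraries labelled KIF20A_OE, against 1.40 to 5.59 FPM in EV. The 4 endothelial markers summed to 0.910 to 36.2 FPM in the libraries labelled KIF20A_OE, against 17.5 to 30.6 FPM in EV, with the defining genes KRT5, DCN and CD3E at 0 or unlisted in both groups. Single members of the other lists also differed without overlap, some of them near the floor. In the libraries labelled KIF20A_OE, 1 basal marker lay above EV and 1 below, and 3 fibroblast markers lay above and 2 below. Of the leukocyte markers 1 lay above and 1 below, and of the endothelial markers 0 above and 2 below. Every comparison of KIF20A_OE with EV below is between groups that also differ in the MDA-MB231 and luminal markers and in these single markers. Their part in the results was not tested, and since all 3 libraries of the group differ in them, they cannot be told apart from the overexpression.

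**Figure D1:**
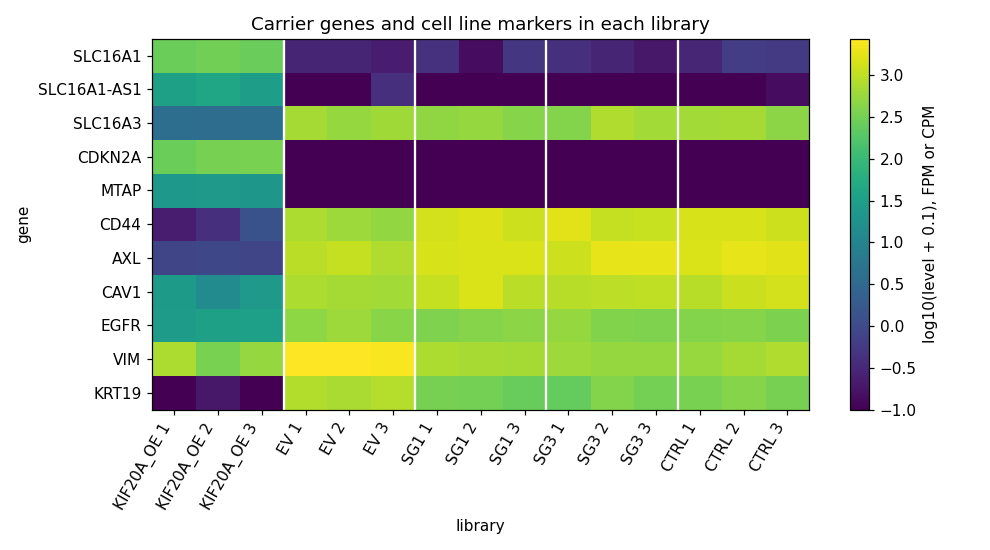
Levels of SLC16A1, its antisense gene SLC16A1-AS1, SLC16A3 and 8 marker genes (rows) in each of the 15 libraries (columns), as log10(level + 0.1) on the colour scale, FPM for KIF20A_OE and EV and CPM for SG1, SG3 and CTRL. The KIF20A_OE columns are bright for SLC16A1, SLC16A1-AS1, CDKN2A and MTAP and dark for SLC16A3, CD44, AXL and KRT19, the reverse of the other 12 columns.

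The libraries labelled KIF20A_OE held SLC16A1 where every other library held SLC16A3. SLC16A1 (ENSG00000155380.13, minus strand of chromosome 1, 112911847 to 112957013 in GRCh38) was 279.9, 316 and 264 FPM in the libraries labelled KIF20A_OE, against 0.190, 0.193 and 0.118 FPM in EV. The EV values stand for 4, 4 and 2 fragments, and those of the libraries labelled KIF20A_OE for 4470, 7006 and 4936. The groups did not overlap, and the ratio of pooled rates was 1695 (exact 95% interval 922 to 3536, counting error only). On the log2(FPM + 1) scale, which understates changes of low genes, the difference was 7.94 ± 0.15 (SE), and 5 of 15265 genes had a higher one. SLC16A1 entered that set of genes, which needed a mean of 1 FPM, only through the libraries labelled KIF20A_OE. It was also chosen for this difference, so its rank restates the choice. In bulk RNA, fewer cells with a transcript and less of it per cell cannot be told apart.

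In the depletion libraries SLC16A1 was low everywhere, at 0.547 CPM or less, and below the floor in SG1 replicate 2. It was 0.337, 0.0410 and 0.407 CPM in SG1 and 0.305, 0.192 and 0.0964 CPM in SG3, against 0.199, 0.547 and 0.474 CPM in CTRL, which came from 2 to 27 counts per library. All 9 values were of the order of those in EV. The antisense gene SLC16A1-AS1, on the opposite strand over the same locus, was 33.6, 42.2 and 30.4 FPM in the libraries labelled KIF20A_OE, against 0, 0 and 0.294 FPM in EV, and 0 in every depletion library except CTRL replicate 3, at 0.0412 CPM. Whether counting used the strand is not stated, so fragments of the 2 genes cannot be told apart.

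SLC16A3 (ENSG00000141526.18, plus strand of chromosome 17, 82228397 to 82261129) had the reverse pattern. Its level was 3.94, 3.74 and 3.96 FPM in the libraries labelled KIF20A_OE, against 682, 547 and 627 FPM in EV. The groups did not overlap and each was narrow, with an EV over KIF20A_OE ratio of pooled rates of 159.8 (exact 95% interval 139.99 to 183, counting error only). The log2(FPM + 1) difference was -6.98 ± 0.13 (SE), and 37 of 15265 genes had a lower one, which again restates the choice of the gene. In the depletion libraries it was 504, 536 and 430.1 CPM in SG1 and 419, 794 and 657 CPM in SG3, against 671, 699 and 461 CPM in CTRL, so all 9 were within the range of 419 to 794 CPM. CSNK1D, a casein kinase gene that overlaps it on the opposite strand, was 392.1, 342 and 379.6 FPM in the libraries labelled KIF20A_OE, against 196, 194 and 190.7 FPM in EV.

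SLC16A7 (ENSG00000118596.12, plus strand of chromosome 12, 59596067 to 59789855) did not share the swap. It was 25.7, 7.12 and 23.8 FPM in the libraries labelled KIF20A_OE, against 15.8, 29.2 and 16.5 FPM in EV. The groups overlapped, and the log2(FPM + 1) difference of -0.24 ± 0.46 (SE) turned to 0.32 without KIF20A_OE replicate 2 and to 0.033 without EV replicate 2. The depletion libraries held 4.34, 5.00 and 8.39 CPM in SG1 and 7.62, 5.39 and 5.01 CPM in SG3, against 4.81, 4.70 and 6.55 CPM in CTRL, with all 3 groups overlapping.

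**Figure D2:**
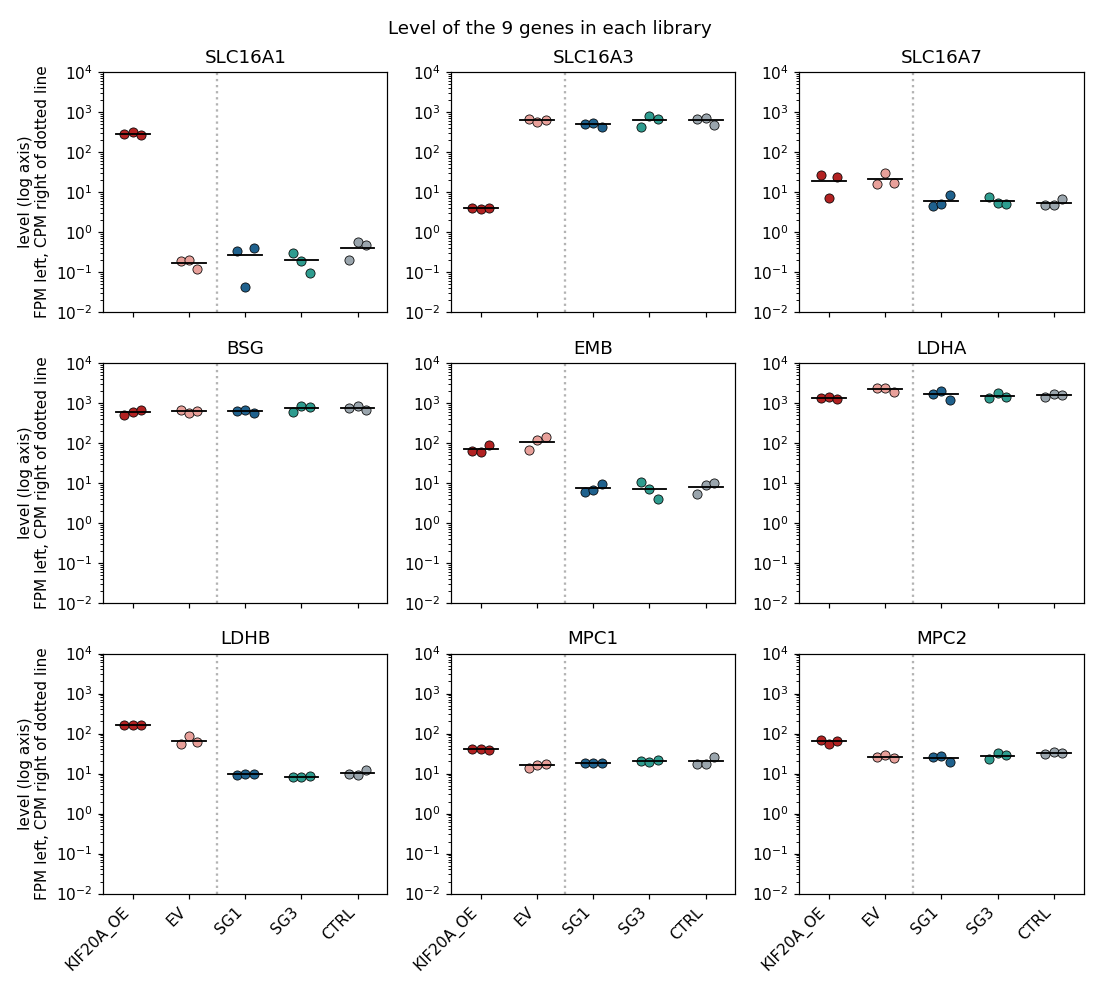
Level of each of the 9 genes (log axis) in every library, FPM for KIF20A_OE and EV left of the dotted line and CPM for SG1, SG3 and CTRL right of it; points are libraries and bars group means (n = 3). SLC16A1 and SLC16A3 exchange places between KIF20A_OE and EV, LDHB, MPC1 and MPC2 lie higher in KIF20A_OE, and the 3 depletion groups overlap for most genes.

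Scaled by exon length and summed over the 3 carriers, SLC16A1 made up 96.7 ± 1.54% of the carrier transcripts in the libraries labelled KIF20A_OE, against 0.0452 ± 0.0133% in EV (here and below, ± is the SD over 3 libraries for shares). SLC16A3 made up 0.778 ± 0.0814% in the libraries labelled KIF20A_OE, against 97.8 ± 1.05% in EV. The share of SLC16A3 was 99.1 ± 0.448% in SG1 and 99.2 ± 0.462% in SG3, against 99.3 ± 0.321% in CTRL. SLC16A7 supplied the rest, 2.55 ± 1.46% in the libraries labelled KIF20A_OE and 2.20 ± 1.04% in EV.

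The partners of the carriers did not swap with them. BSG (ENSG00000172270.22, plus strand of chromosome 19, 571277 to 583493), which serves both MCT1 and MCT4, was 497, 599 and 674 FPM in the libraries labelled KIF20A_OE, against 643, 565 and 611 FPM in EV. These groups overlapped, with a log2(FPM + 1) difference of -0.05 ± 0.14 (SE), which was 0.07 without KIF20A_OE replicate 1. In the depletion libraries BSG was 632, 649 and 547 CPM in SG1 and 597, 829 and 767 CPM in SG3, against 740.1, 834 and 664 CPM in CTRL.

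EMB (ENSG00000170571.12, minus strand of chromosome 5, 50396192 to 50443248) was 63.4, 58.3 and 88.2 FPM in the libraries labelled KIF20A_OE, against 67.6, 114 and 138 FPM in EV, which overlapped (log2(FPM + 1) difference -0.56 ± 0.27, SE). Set beside these, its depletion levels were lower, at 5.94, 6.68 and 9.30 CPM in SG1 and 10.2, 7.11 and 3.86 CPM in SG3, against 5.16, 8.71 and 9.97 CPM in CTRL. As a share of the length-scaled BSG and EMB level, EMB was 7.88 ± 1.13% in the libraries labelled KIF20A_OE, against 11.3 ± 3.72% in EV, and it was 0.876 ± 0.295% in SG1 and 0.732 ± 0.441% in SG3, against 0.774 ± 0.287% in CTRL.

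The lactate dehydrogenase genes lay on opposite sides in the libraries labelled KIF20A_OE. LDHA (ENSG00000134333.14, plus strand of chromosome 11, 18394388 to 18408425) was 1343, 1370.3 and 1243 FPM in the libraries labelled KIF20A_OE, against 2299.6, 2272 and 1846 FPM in EV. LDHB (ENSG00000111716.14, minus strand of chromosome 12, 21635342 to 21757857) was 168, 167 and 161 FPM in the libraries labelled KIF20A_OE, against 53.6, 84.7 and 62.1 FPM in EV. Neither gene's groups overlapped, with log2(FPM + 1) differences of -0.69 ± 0.12 (SE) for LDHA and 1.32 ± 0.17 for LDHB, and ratios of pooled rates of 0.612 (exact 95% interval 0.606 to 0.617) and 2.47 (2.38 to 2.56), counting error only.

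LDHA levels in the depletion libraries were 1691, 1976 and 1189 CPM in SG1 and 1348, 1698 and 1396 CPM in SG3, against 1405, 1615 and 1529.6 CPM in CTRL. LDHB levels there were 9.33, 9.69 and 9.68 CPM in SG1 and 8.10, 8.41 and 8.80 CPM in SG3, against 9.57, 9.19 and 12.6 CPM in CTRL. All 9 LDHB values lay below those of EV. LDHB was 20.7 ± 0.507% of the length-scaled LDHA and LDHB level in the libraries labelled KIF20A_OE, against 6.12 ± 1.34% in EV. It was 1.27 ± 0.348% in SG1 and 1.18 ± 0.144% in SG3, against 1.42 ± 0.258% in CTRL. Using the longest transcript in place of all exons gave 16.5% in the libraries labelled KIF20A_OE, against 4.69% in EV, with the same order. LDHA, LDHB, EMB and SLC16A1 have pseudogenes that could share reads with them, all at 1.41 CPM or less in the depletion libraries. In the overexpression libraries LDHAP2 and LDHAP3, both of LDHA, were at 0.706 FPM or less, and the other pseudogenes were not listed under their symbols.

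Both subunit genes of the mitochondrial pyruvate carrier were higher in the libraries labelled KIF20A_OE. MPC1 (ENSG00000060762.19, minus strand of chromosome 6, 166364919 to 166383013) was 40.7, 42.2 and 37.7 FPM in the libraries labelled KIF20A_OE, against 13.9, 16.8 and 17.3 FPM in EV. MPC2 (ENSG00000143158.11, minus strand of chromosome 1, 167916729 to 167937040) was 70.3, 53.7 and 66.3 FPM in the libraries labelled KIF20A_OE, against 26.3, 28.9 and 24.0 FPM in EV. Neither gene's groups overlapped, and the log2(FPM + 1) differences were 1.28 ± 0.15 and 1.23 ± 0.15 (SE). MPC2 overlaps DCAF6, a gene on the opposite strand with 81.3, 59.5 and 75.9 FPM in the libraries labelled KIF20A_OE, against 57.7, 48.8 and 62.7 FPM in EV.

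MPC1 was 17.8, 17.9 and 17.8 CPM in SG1 and 20.1, 19.2 and 22.0 CPM in SG3, against 17.8, 17.4 and 26.4 CPM in CTRL, where replicate 3 stood above the other 2. MPC2 was 25.6, 27.4 and 19.9 CPM in SG1 and 22.6, 32.0 and 28.7 CPM in SG3, against 31.6, 35.0 and 32.5 CPM in CTRL. Per exon length the subunits were near balance in every group, with MPC1 at 51.3 ± 4.48% of their sum in the libraries labelled KIF20A_OE, against 49.9 ± 3.99% in EV, and at 55.0 ± 4.10% in SG1 and 55.0 ± 4.92% in SG3, against 50.1 ± 6.36% in CTRL.

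**Figure D3:**
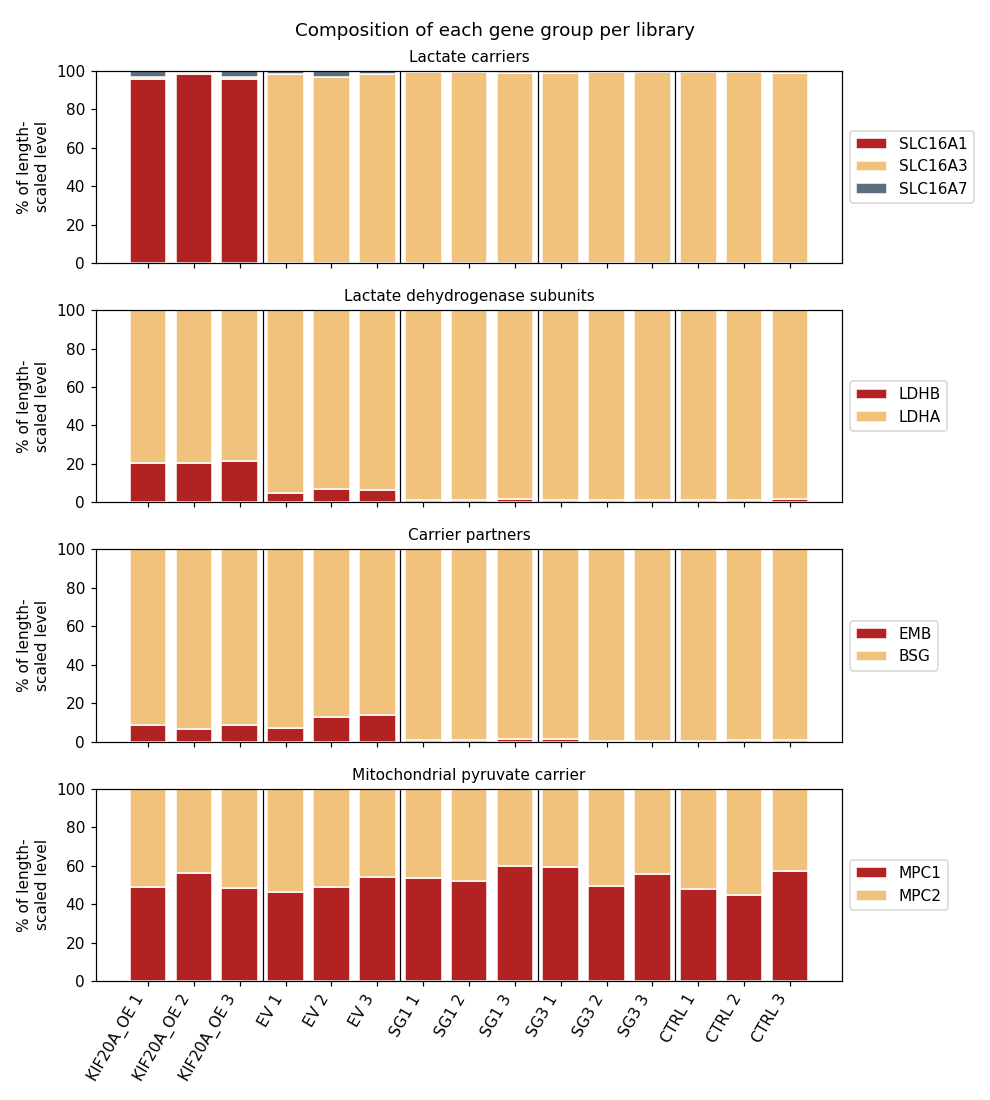
Share of each gene in the length-scaled level of its group (percent, stacked bars, 1 bar per library) for the lactate carriers, the lactate dehydrogenase subunits, the carrier partners and the mitochondrial pyruvate carrier. SLC16A1 fills 95.8 to 98.4% of the carrier bar in the 3 KIF20A_OE libraries and SLC16A3 fills 96.5% or more in the other 12, while MPC1 stays between 44.97 and 59.6% in all 15.

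Of the 9 genes, 4 had all libraries labelled KIF20A_OE above all EV libraries (SLC16A1, LDHB, MPC1 and MPC2), 2 had them below (SLC16A3 and LDHA) and 3 overlapped. Over all 15265 genes 48.9% lay above and 25.2% below, and limma called 46.2% higher and 23.4% lower. The genes were chosen with this contrast in view, and nothing is read from their count. The median gene had a log2(FPM + 1) difference of 0.37. Relative to it, BSG was at -0.42, SLC16A7 at -0.61, EMB at -0.94, LDHA at -1.06, LDHB at 0.95, MPC1 at 0.91 and MPC2 at 0.86. Of the 15265 genes, 3102, 3225 and 3411 had a higher difference than LDHB, MPC1 and MPC2, and 2965 had a lower one than LDHA. With TMM scaling the median of all genes was 0.05, the calls over all genes split 5298 higher and 4901 lower in place of 7048 and 3573, and none of the 9 differences changed sign.

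Per kilobase of exon, LDHA had the highest mean level of the 9 genes in every group, followed by BSG. In SG1, SG3 and CTRL the order then ran SLC16A3, MPC1, MPC2, LDHB, EMB, SLC16A7, SLC16A1, and neighbours in it overlapped only for LDHA and BSG in SG3 and for MPC1 and MPC2 in SG3 and CTRL. In EV it ran SLC16A3, LDHB, EMB, MPC2, MPC1, SLC16A7, SLC16A1, with LDHB overlapping EMB and MPC2 overlapping MPC1. In the libraries labelled KIF20A_OE, LDHB and SLC16A1 came next, at 55.5 ± 1.22 and 54.0 ± 4.98 FPM per kilobase and overlapping. MPC1 and MPC2, also overlapping, followed, then EMB and SLC16A7, and SLC16A3 was last at 0.432 ± 0.0136.

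Against CTRL, none of the 9 genes passed the test in SG1 or SG3. All 9 entered the edgeR fit of 16786 genes, in which 0% of genes were called for SG1, for SG3 or between them, with 764, 195 and 804 genes at an unadjusted p under 0.05. DESeq2 called 2, 4 and 4 genes in these comparisons, limma-voom 0, and neither called any of the 9. The SG1 and SG3 comparisons share their CTRL libraries. The 9 log2 differences ran from -0.65 to 0.14 (median -0.20) in SG1 and from -1.01 to 0.17 (median -0.03) in SG3, beside medians of -0.002 and -0.01 over all genes. SLC16A1, with the fewest counts, had the lowest value and the widest error in both, at -0.65 ± 0.72 and -1.01 ± 0.73 (SE). SLC16A3 was at -0.32 ± 0.21 in SG1 and 0.03 ± 0.21 in SG3.

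In SG1, MPC2 and BSG were the 2 genes with all libraries below all CTRL libraries, as 7.21% of all genes were, and 0 lay above without overlap, as 4.96% did. The log2 difference of MPC2 was -0.44 ± 0.17 (SE; edgeR unadjusted p = 0.0194, adjusted p = 0.914). That of BSG was -0.29 ± 0.15 (edgeR unadjusted p = 0.0781, adjusted p = 0.914). In SG3, LDHB was the 1 gene below CTRL without overlap (2.38% of all genes were, and 2.28% were above), at -0.31 ± 0.18 (edgeR unadjusted p = 0.109, adjusted p = 1.0). The MPC2 difference in SG3 was -0.25 ± 0.17, with overlap. LDHA was at 0.09 ± 0.18 in SG1 and -0.03 ± 0.18 in SG3. MPC1 was at -0.20 ± 0.18 in SG1 and -0.01 ± 0.18 in SG3, values that became 0.0046 and 0.21 without CTRL replicate 3.

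Set against SG3, SG1 had log2 differences of -0.35 to 0.37 for the 9 genes (median -0.03, all genes 0.01; edgeR adjusted p = 0.863 to 0.988). LDHB lay higher in SG1 without overlap (0.18 ± 0.18, SE), as 6.26% of all genes did, and MPC1 lower (-0.19 ± 0.18), as 4.55% did. No gene of the 9 passed the threshold in any of the 3 comparisons when 1 library was left out, SG3 replicate 1 and CTRL replicate 3 included, and the lowest edgeR adjusted p so obtained was 0.122, for SLC16A3 between SG1 and SG3.

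**Figure D4:**
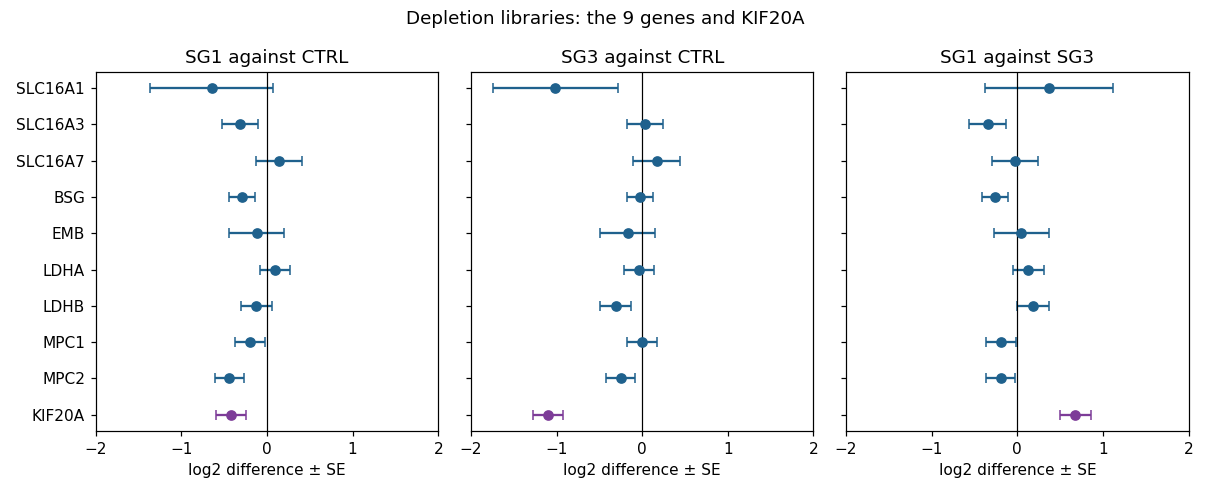
Log2 difference ± SE from edgeR (x axis) for the 9 genes and KIF20A (rows) in SG1 against CTRL, SG3 against CTRL and SG1 against SG3, n = 3 libraries a group. Of the 9 genes, SLC16A1 has the widest bars, -0.65 ± 0.72 and -1.01 ± 0.73 against CTRL, and KIF20A lies at -0.42 and -1.10.

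Around the 9 genes, 6 lists of 77 pathway genes were read in the same fits. In the libraries labelled KIF20A_OE, genes of glucose uptake and glycolysis fell more often than they rose: of 19, limma called 2 higher and 12 lower (median log2 difference -0.68), beside 46.2% higher and 23.4% lower of all genes. SLC2A3, a neuronal-type glucose transporter, was 21.5, 11.3 and 10.2 FPM in the libraries labelled KIF20A_OE, against 175, 158 and 130.3 FPM in EV (limma log2 difference -3.40 ± 0.26, adjusted p = 8.15e-06). SLC2A1, the common glucose transporter, was 183, 94.7 and 105 FPM in the libraries labelled KIF20A_OE, against 1298, 763 and 613 FPM in EV (-2.78 ± 0.33, limma adjusted p = 0.000133). The regulator gene PFKFB4 and the pyruvate kinase gene PKM also fell, by 1.92 and 0.91 on the log2 scale.

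Genes of the HIF axis fell in 9 of 13 cases and rose in 3 (median -1.30), beside the same 23.4% lower and 46.2% higher of all genes and their median of 0.37. HIF1A, the regulated subunit of HIF-1, was 124, 123 and 134 FPM in the libraries labelled KIF20A_OE, against 298, 279 and 257 FPM in EV (limma log2 difference -1.12 ± 0.11, adjusted p = 3.62e-05). ANGPTL4, a secreted lipase inhibitor and HIF target, was 1.19, 0.451 and 0.375 FPM in the libraries labelled KIF20A_OE, against 254, 110.3 and 80.4 FPM in EV (-6.34 ± 0.40, limma adjusted p = 3.06e-06). EPAS1, which encodes HIF-2 alpha, and P4HA1, a collagen prolyl hydroxylase gene, fell by 2.37 and 1.22. Among 6 proton and bicarbonate regulators, 4 fell and 2 rose (median -0.92), beside the same shares and median. The carbonic anhydrase genes CA12 and CA9 fell by 2.72 and 4.04, while CA2, another of that family, was 146, 56.8 and 229.8 FPM in the libraries labelled KIF20A_OE, against 0.286, 0.290 and 0.823 FPM in EV (6.43 ± 0.46, limma adjusted p = 7.04e-06), and the bicarbonate carrier gene SLC4A4 rose by 2.52. By the filter on mean FPM, CA2 and SLC4A4 entered the fit only through the libraries labelled KIF20A_OE, and ANGPTL4 and CA9 only through EV. The counts include them.

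Of 13 genes of pyruvate dehydrogenase, its regulators and pyruvate carboxylase, limma called 8 higher and 3 lower (median 0.61), beside 46.2% and 23.4% of all genes. With TMM scaling it called 4 higher and 3 lower (median 0.27), beside 34.7% and 32.1% of all genes, and nothing is read from this list's count. PDHA1, the alpha subunit of pyruvate dehydrogenase, was 159.8, 198 and 184 FPM in the libraries labelled KIF20A_OE, against 48.5, 56.2 and 59.6 FPM in EV (limma log2 difference 1.70 ± 0.13, adjusted p = 9.47e-06), and PDK3, a kinase that inhibits the complex, rose by 2.18. PC, pyruvate carboxylase, was 33.6, 25.9 and 30.3 FPM in the libraries labelled KIF20A_OE, against 229, 256 and 158 FPM in EV (-2.78 ± 0.19, limma adjusted p = 4.60e-06), and PDP1, a phosphatase that activates the complex, fell by 1.57.

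Other enzymes of pyruvate and lactate rose in 6 of 8 tested cases and fell in 1 (median 1.07; 11 were listed), beside 46.2% higher and 23.4% lower of all genes and their median of 0.37. ME3, a mitochondrial malic enzyme gene, was 0, 0.180 and 0.321 FPM in the libraries labelled KIF20A_OE, against 81.3, 92.7 and 87.7 FPM in EV (limma log2 difference -6.25 ± 0.18, adjusted p = 6.29e-08). ME1, its cytosolic relative, rose by 2.04, LDHC, the testis lactate dehydrogenase gene, by 2.65, and PCK2, mitochondrial phosphoenolpyruvate carboxykinase, by 1.46. Of 12 tested other carrier and carrier-related genes, 9 rose and 3 fell (median 1.54; 15 were listed), beside the same shares and median of all genes. SLC16A10, an aromatic amino acid carrier, was 42.1, 45.9 and 51.3 FPM in the libraries labelled KIF20A_OE, against 0.428, 0.773 and 0.412 FPM in EV (4.95 ± 0.19, limma adjusted p = 1.68e-07). SLC16A9 and SLC16A14, relatives in the same family, rose by 4.58 and 4.49, the first over an EV group with 1 fragment in all, so that its value depends on the pseudocount. SLC16A5, another relative, fell by 2.69. Of the genes named from these lists, LDHC, SLC16A10, SLC16A9 and SLC16A14 averaged less than 1 FPM in EV. They entered the fit only through the libraries labelled KIF20A_OE, and the counts of genes that rose include them. ME3 entered it only through EV.

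**Figure D5:**
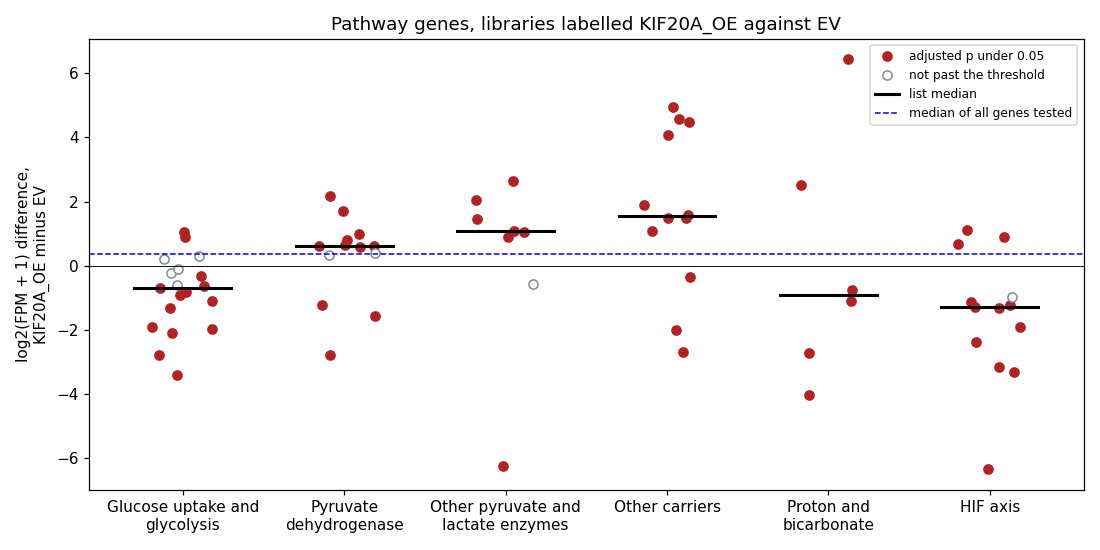
Log2(FPM + 1) difference of KIF20A_OE minus EV (y axis) for each tested gene of the 6 pathway lists (x axis); filled points passed the limma threshold, black bars are list medians and the dashed line is the median of all genes, 0.37. The glycolysis, proton and HIF lists have medians of -0.68, -0.92 and -1.30, and the other 3 lists 0.61, 1.07 and 1.54.

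In the depletion comparisons 0 of the 69 tested genes of these lists were called by edgeR. The lowest unadjusted p of these lists in SG1 and in SG3 belonged to PDK4 and ANGPTL4, both known targets of PPAR factors. PDK4, a kinase that inhibits pyruvate dehydrogenase, was 6.15, 8.60 and 7.45 CPM in SG1 and 8.27, 6.47 and 5.83 CPM in SG3, against 1.10, 3.12 and 2.56 CPM in CTRL. Its log2 difference was 1.71 ± 0.31 (SE) in SG1 and 1.599 ± 0.31 in SG3 (edgeR adjusted p = 0.914 and 0.550). ANGPTL4 was 3.03, 2.79 and 8.41 CPM in SG1 and 8.59, 4.24 and 4.15 CPM in SG3, against 1.04, 1.42 and 1.15 CPM in CTRL, with differences of 1.97 ± 0.42 and 2.23 ± 0.42 (edgeR adjusted p = 0.914 and 0.545). Neither gene's SG1 or SG3 libraries overlapped CTRL, and both genes were called higher in both comparisons by DESeq2 and by edgeR without a low-count filter.

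Other genes with a low unadjusted p stood nearer to 0. Against CTRL they included PDK3 at 0.53, BNIP3, a mitophagy receptor gene, at 0.44 and HK2, hexokinase, at 0.32 on the log2 scale in SG1, with CA2 at -0.97, SLC16A10 at -0.53 and PCK2 at -0.50. CA2 rested on 10, 8 and 12 counts in SG1 and 18, 18 and 26 in CTRL. In SG3 the alanine transaminase gene GPT2 was at -0.40, the aldolase gene ALDOC at -0.41 and CA12 at -0.38. Not all had a low edgeR unadjusted p, which was 0.141 for CA2 in SG1. In SG3 it was 0.220 for ALDOC and 0.158 for CA12. Between SG1 and SG3, CA12 was at 0.77 (edgeR unadjusted p = 0.00974) and ADM, a vasodilator peptide gene, at -0.72 (0.00277), both with an edgeR adjusted p of 0.863.

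By root-mean-square distance of log2 levels centred within each dataset over the 15 libraries, the 5 genes nearest to SLC16A1 were FBLN1, NKX2-5, SLC19A1, MACROH2A2 and MAPK8IP2, at 0.458 to 0.491. They were 103 to 197 FPM on average in the libraries labelled KIF20A_OE, against 0 to 0.511 FPM in EV, and were 0.0958 to 3.77 CPM in the depletion libraries. The 5 nearest to SLC16A3 were TINAGL1, UNC13D, ITGA3, KRT80 and THBS1, at 0.186 to 0.215. ITGA3, an integrin subunit gene, averaged 16.7 ± 0.815 FPM in the libraries labelled KIF20A_OE and 1963 ± 214 FPM in EV, and the other 4 averaged 0.107 to 1.17 FPM in the libraries labelled KIF20A_OE, against 107 to 294 FPM in EV. Ranked by Pearson's r instead, 0 and 1 of these 5 were kept, the 1 being UNC13D near SLC16A3. The likeness rests on the difference between the libraries labelled KIF20A_OE and EV, which the choice of the genes used.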

How the data were processed

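The authors deposited raw counts per gene for the depletion libraries. For the overexpression libraries the labels say FPKM, but each deposited column summed to a fixed total in whole multiples of 1 step, so the values were CPM of fragments (FPM) with no gene length in them, and 100% came out as whole fragments within 0.001. The submitters' processing notes name build hg38 with STAR 2.7.3a, Trim Galore 0.6.4, limma 3.50.3, Subread 1.6.3 and featureCounts. Which step each served, the annotation and whether counting used the strand are not given in the sources. Identifiers matched GENCODE 29 (GRCh38), which gave coordinates and exon lengths, for 96.3% and 97.3% of rows.

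Counts were tested with edgeR 4.0.16 in R 4.3.3 (quasi-likelihood, robust, TMM, default expression filter, 1 fit of 9 libraries) and FPM with limma 3.58.1 (trend, robust) on log2(FPM + 1) for genes averaging 1 FPM or more. The planned design had assumed FPKM, and its log-scale test was kept. As an added reading, edgeR on the recovered fragments called 5667 genes higher and 5208 lower. Benjamini-Hochberg adjusted p-values cover all genes of a fit, with a threshold of 0.05. Groups are called overlapping where the ranges of their libraries meet. Exact intervals and floors reflect counting error only, as reads were not tagged by molecule. Replicate pairs differed beyond sampling noise (chi-square per degree of freedom 10.71 to 118). Both fits were also run on simulated data in which few genes changed. In KIF20A_OE against EV limma called 46.2% of genes higher and 23.4% lower, so that run says little about these calls.

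The genes and lists were chosen with earlier results of these data known. Named genes are the 9, KIF20A, and per list and comparison up to 4 called genes with the smallest adjusted p or else the 2 with the smallest unadjusted p, plus the 5 genes nearest to SLC16A1 and to SLC16A3. Markers and overlapping genes are named as checks. Alternatives were DESeq2 1.42.0, limma-voom, other filters, scalings, pseudocounts and lengths, halved counts, a replicate block and leaving out each library. Deviations of same-numbered libraries correlated at -0.123 to 0.182 in the depletion and 0.0142 to 0.0577 in the overexpression dataset, not above 0.1 in every pair of either, so numbers were not taken as pairs. The values of 1 gene of the pathway lists and of 1 marker are not reported here.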

Additional observations from a re-analysis of the deposited data

How the results depend on the processing

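Direction and side of the threshold were kept by 1311 of the values recomputed, 62 moved in size or count, and 36 had the other sign, of which none was called. For SG1 against CTRL, where edgeR called 0 genes, DESeq2 called 2 higher, omitting the low-count filter gave 11 higher and 25 lower, and leaving out 1 library gave 0 to 1 lower (1 without SG1 replicate 2). For SG3 against CTRL, DESeq2 called 3 higher and 1 lower, and omitting the filter gave 3 and 2. Between SG1 and SG3, DESeq2 called 2 higher and 2 lower, omitting the filter gave 3 and 19, and leaving out 1 library gave 0 to 20 lower (20 without SG3 replicate 1).

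Log2 differences near 0 had no stable sign. With the low-count filter omitted, BSG in SG3 against CTRL was 0.0023. MPC1 in the same comparison was 0.0044 with DESeq2, 0.0165 with limma-voom, 0.0302 with no filter and 0.0059 with upper-quartile scaling. SLC16A1 between SG1 and SG3 was -0.036 with limma-voom. Leaving out 1 library gave, for SG1 against CTRL, -0.20 to 0.30 for SLC16A7, -0.37 to 0.0522 for EMB, -0.0734 to 0.27 for LDHA, -0.21 to 0.0085 for LDHB and -0.31 to 0.0046 for MPC1. For SG3 against CTRL it gave -0.18 to 0.27 for SLC16A3, -0.0127 to 0.33 for SLC16A7, -0.13 to 0.12 for BSG, -0.51 to 0.11 for EMB, -0.15 to 0.0549 for LDHA and -0.10 to 0.21 for MPC1. Between SG1 and SG3 it gave -0.0846 to 0.86 for SLC16A1, -0.36 to 0.15 for SLC16A7, -0.25 to 0.38 for EMB and -0.0668 to 0.31 for LDHA. For KIF20A_OE against EV it gave -0.54 to 0.32 for SLC16A7 and -0.15 to 0.069 for BSG. The cause was not tested.

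With the replicate number as a block, edgeR again called 0 genes in the depletion comparisons and limma called 6984 higher and 3546 lower in KIF20A_OE against EV, and MPC1 in SG3 against CTRL was 0.0113. Whether libraries of equal number were handled together is not stated by the labels, and the main fits did not take them as pairs. As a hint from the data, 6 of 6 overexpression libraries and 2 of 9 depletion libraries correlated best with a library of their own number.

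With other pseudocounts (0.1 or 5 FPM), scalings or tools, the KIF20A_OE minus EV difference ran from 5.81 to 10.3 for SLC16A1, -7.69 to -6.13 for SLC16A3, -0.41 to -0.048 for BSG, -1.07 to -0.69 for LDHA and 0.94 to 1.33 for LDHB. Low counts limit SLC16A1 in all libraries except those labelled KIF20A_OE.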
